A study of Mus musculus with 21 samples.

Results

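The liver of Mdr2 knockout (KO) mice was compared between day 6 and day 2 after partial hepatectomy, the surgical removal of part of the liver, across all measured genes. The members were the 6 arrays whose titles name a KO mouse on day 6 (mice 312, 332 and 337) or on day 2 (mice 250, 254 and 258), of 21 arrays in the series. Each gene was followed by 1 probe set, that with the highest mean over all arrays, which gave 12393 genes; the 7320 with a log2 value above 4 on at least 3 arrays were tested. The Mdr2 gene, now called Abcb4, encodes the canalicular transporter that moves phospholipid into bile, and mice without it develop chronic bile duct injury, inflammation and liver tumours. The KO mice were males of strain FVB129P2, 9 months old, with 30% of the liver resected, and gave 6 day 0 arrays from the removed lobes, 1 for each of the 6 mice followed here. Control males of strain FVB129P2/FVBNJ, of the same age and with the same resection, gave 3 arrays on each of days 0, 2 and 6. Day 2 and day 6 livers came from different mice, so each group held 3 animals, and every sample was 1 mouse on 1 array. The liver on both days was what remained after surgery, so no array of either group shows a liver without resection. Genotype and strain cannot be told apart. By its title the study addresses how DNA breaks that arise in chronic inflammation favour liver cancer; the comparison here follows the KO liver from the earlier to the later sampling day.

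Interferons are secreted signals that cells release on sensing nucleic acids or other danger cues. They bind cell surface receptors, which through the kinases JAK1 and TYK2 activate a complex that holds STAT2 and IRF9, which switches on a common set of antiviral genes through a promoter element built from repeats of GAAA. IRF7 is at once a product of this response and the factor that amplifies interferon production, and USP18 is its feedback inhibitor. In the resected liver, hepatocytes re-enter the cell cycle early and return to quiescence later, while acute phase secretion, metabolism and the sinusoidal endothelium recover at their own pace.

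The targeted gene was read first. Abcb4 stood at 8.03, 7.88 and 7.89 on day 2 (mice 250, 254 and 258) and at 8.02, 7.25 and 7.93 on day 6 (mice 312, 332 and 337), on the log2 GCRMA scale that all levels below use. The KO arrays, day 0 included, lay between 7.25 and 8.96 and the control arrays between 9.23 and 10.33, so the genotypes did not overlap, but the signal in KO livers was far above background. The sources used here do not place this probe set inside or outside the deletion, so it is a limited check of the labels. The hepatocyte markers Alb (albumin), Ttr (transthyretin) and Apoa1 (apolipoprotein A1) ranged from 14.86 to 15.31 over the 6 arrays. Array medians ran from 3.885 to 4.1, the Gapdh 3' minus 5' difference, a sign of RNA integrity, from -0.35 to 0.23, and the mean correlation with arrays of the same group from 0.9637 to 0.974. The 3 arrays of the series with a Gapdh difference above 1 were not among the 6, but they enter the shared estimate of spread. They were control day 2 mice 265 (9.5) and 263 (1.58) and the day 0 lobe of KO mouse 337 (2.03). The day 2 array of mouse 265 also had the lowest mean correlation with its group in the series, 0.8839. Control differences between the days, given below, include mice 263 and 265.

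The genes that passed the test between the days were all grouped as interferon-induced, 4 of them after values were seen. Promoter sequences of interferon-induced genes that hold 2 copies of GAAA separated by 2 bases are therefore given first. That of Irf7 is added as a member in which this element was not found. Each is the 170 bases before the annotated transcription start, 5' to 3' on the gene's strand, from RefSeq, build GRCm38.p6, with matches to the element, or to its reverse complement with TTTC for GAAA, in capitals, and overlapping matches joined in 1 run.
Oas1a: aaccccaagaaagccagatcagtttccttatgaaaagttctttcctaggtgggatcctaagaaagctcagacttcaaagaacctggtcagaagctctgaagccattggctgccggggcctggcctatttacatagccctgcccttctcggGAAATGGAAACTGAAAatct
Ifit1: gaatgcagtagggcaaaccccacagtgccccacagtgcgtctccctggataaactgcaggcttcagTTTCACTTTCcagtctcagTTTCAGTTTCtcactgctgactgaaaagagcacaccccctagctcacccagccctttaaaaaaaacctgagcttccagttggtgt
Ifit3: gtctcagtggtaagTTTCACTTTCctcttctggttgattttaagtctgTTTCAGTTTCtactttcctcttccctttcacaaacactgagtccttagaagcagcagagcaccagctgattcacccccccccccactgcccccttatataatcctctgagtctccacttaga
Rsad2: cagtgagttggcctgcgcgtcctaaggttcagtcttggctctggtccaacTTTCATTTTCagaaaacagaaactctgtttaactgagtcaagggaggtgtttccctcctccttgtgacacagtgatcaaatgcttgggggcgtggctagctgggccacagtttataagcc
Gbp2: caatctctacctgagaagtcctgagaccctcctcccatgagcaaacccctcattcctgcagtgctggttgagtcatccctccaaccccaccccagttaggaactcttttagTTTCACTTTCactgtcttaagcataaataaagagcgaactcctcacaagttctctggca
Gbp3: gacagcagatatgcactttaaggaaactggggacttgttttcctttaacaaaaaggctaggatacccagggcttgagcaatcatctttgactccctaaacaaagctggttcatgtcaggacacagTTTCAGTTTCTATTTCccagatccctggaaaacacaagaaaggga
Irf7: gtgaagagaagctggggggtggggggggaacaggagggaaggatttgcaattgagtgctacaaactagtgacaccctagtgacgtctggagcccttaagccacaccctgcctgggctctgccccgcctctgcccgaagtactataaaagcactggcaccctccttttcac

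The Oas1a sequence lies at chr5:120907526-120907695 on the minus strand, with 2 overlapping matches that begin 20 and 14 bases before the start. The Ifit1 and Ifit3 sequences lie on the plus strand at chr19:34640719-34640888 and chr19:34583359-34583528, with 2 separate matches each. The Rsad2 sequence is at chr12:26456453-26456622 on the minus strand with 1 match. The guanylate binding protein genes lie on the plus strand of chromosome 3, Gbp2 at chr3:142620493-142620662 with 1 match and Gbp3 at chr3:142559874-142560043 with 2 overlapping matches. The Irf7 sequence is at chr7:141266425-141266594 on the minus strand and holds 0 matches.

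Over windows from 250 bases before to 50 after the start, on both strands, the element was in 11 of the 25 tested interferon-stimulated genes that had an entry (44%), in 3.81% of the 6017 tested genes with an entry and in 3.99% of all 27025 symbols. Among the 6 called genes with an entry it was in 1, Oas1a (16.7%); of the 7 sequences above, those of Oas1a and Irf7 are of called genes. This element was searched after the values were seen. Of 6 other motifs, TGANTCA was in 7 of the 25 (28%) against 6.6% of tested genes, TATAAA in 7 (28%) against 9.62%, CCAAT in 12 (48%) against 43.2%, TTTGAA in 5 (20%) against 14.5%, AGGTCA in 4 (16%) against 15.9% and CACGTG in 0 against 12.4%. A match describes letters in the window and does not show a bound site.

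Between the day 2 and day 6 groups of KO mice 9 genes passed the test, and all 9 were higher on day 6. These were Oasl2, Irf7, Oas1a, Usp18, Ifit2, Rtp4, Ifi209, Ifi27l2a and Fgl2, by 1.38 to 5.63 on the log2 scale, with day 6 above day 2 in every pairing of mice. Ifi209, Oas1a, Oasl2 and Ifit2 passed the filter only through day 6 arrays, KO and control, on which they were high. Genes described below that also needed day 6 arrays to pass include Ifit1, Mx1, Mx2, Dhx58, Fcgr1, Gzmb, Klrk1, Cmpk2, Ddx60, Ifi204, Pecam1 and Msln. For these genes entry to the test depended on the day 6 level. With no filter, 0 of 12393 genes were called. The test was the contrast of the 2 groups in 1 limma model of all 6 groups, with p-values adjusted by Benjamini-Hochberg and a threshold of 0.05. The 9 genes are 0.123% of the 7320 tested. In limma 0 genes were called lower. At an unadjusted p under 0.05 there were 365 genes (4.99%), of which 227 were higher and 138 lower. The median difference over all tested genes was -0.0433. The groups did not overlap for 437 genes higher (5.97%) and 536 lower (7.32%) on day 6. Leaving out a single mouse left 0 calls without 250, 254, 258 or 332, 2 without 312 and 33 without 337; with each mouse compared to its own day 0 lobe (mouse as a fixed block) there were also 0 calls, and 337 genes at an unadjusted p under 0.05.

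**Figure D1:**
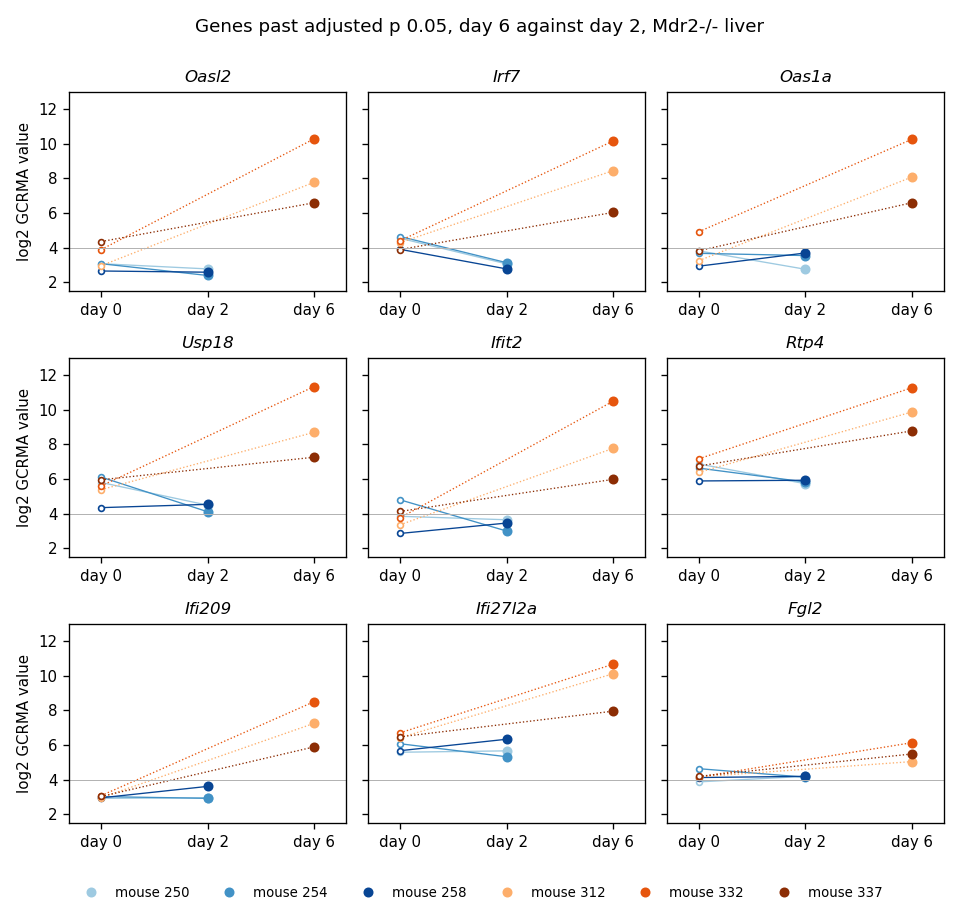
Log2 GCRMA values (y axis) of the 9 genes past the threshold on days 0, 2 and 6 (x axis) in KO liver; lines join the day 0 lobe (open circle) of a mouse to its later sample (filled circle), and the grey line marks log2 4. All 3 day 6 mice lie above all 3 day 2 mice in each panel, and mouse 332 is the highest.

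Among the regulators, Irf7, the transcription factor that amplifies interferon production, stood at 3.07, 3.14 and 2.78 on day 2 and at 8.45, 10.16 and 6.04 on day 6. All day 2 values lay under log2 4, near background, so the level there is not resolved. Irf7 rose by 5.22 ± 0.80 (SE, 3 mice against 3; adjusted p = 0.00979 in limma), a 37.3-fold difference on this scale. The day 0 lobes of the same mice lay at 3.90 to 4.65: the day 2 livers were below their own lobes by 1.13 to 1.51, and the day 6 livers above theirs by 2.14 (mouse 337) to 5.75 (mouse 332).

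Usp18, the protease that removes the ubiquitin-like ISG15 and blocks the interferon receptor, measured 4.49, 4.11 and 4.54 on day 2 and 8.70, 11.34 and 7.26 on day 6. The lowest day 6 mouse was well above the highest day 2 mouse, and Usp18 rose by 4.72 ± 0.86 (adjusted p = 0.03 in limma). Irf9, the DNA-binding partner of STAT2, was at 4.33, 6.31 and 5.88 on day 2 and 7.58, 8.21 and 7.12 on day 6, without overlap, a difference of 2.13 ± 0.45 (adjusted p = 0.0906). Stat2 and Irf1 overlapped between days, with differences of 1.20 and 0.41; in both the highest value was in mouse 332, at 8.32 and 9.09.

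The antiviral effectors had the largest median difference of the interferon gene groups described here. Oasl2, of the oligoadenylate synthetase-like family, was at 2.78, 2.40 and 2.59 on day 2 and 7.78, 10.29 and 6.60 on day 6. Oas1a, which makes the oligoadenylates that activate RNase L, was at 2.76, 3.55 and 3.70 on day 2 and 8.08, 10.26 and 6.60 on day 6. Ifit2, which binds foreign RNA and blocks its translation, was at 3.65, 3.00 and 3.46 on day 2 and 7.77, 10.49 and 5.98 on day 6. In these genes the day 2 mice were all under log2 4 and the day 6 mice kept the order 332, 312, 337.

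They rose by 5.63 ± 1.02 (Oasl2, adjusted p = 0.03), 4.98 ± 0.78 (Oas1a, adjusted p = 0.00979) and 4.71 ± 0.86 (Ifit2, adjusted p = 0.03), all in limma. Ifit1 and Ifit3, relatives of Ifit2 that act with it, differed by more than most but did not pass: Ifit1 was at 3.47, 2.95 and 2.56 against 7.98, 12.16 and 6.23 (adjusted p = 0.0906). Ifit3 was at 5.46, 4.64 and 4.02 against 8.58, 13.26 and 7.90 (adjusted p = 0.134). Both were without overlap, and the spread among day 6 mice (SD 3.05 and 2.92) was larger than for any of the 9 called genes.

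Rsad2 (viperin), which makes a chain-terminating nucleotide, reached 12.36 in mouse 332 against 7.62 and 7.18 in mice 312 and 337, with day 2 at 3.81 to 5.17. The dynamin-like GTPase Mx1 was at 2.66 to 2.72 on day 2 and at 4.05, 9.61 and 4.53 on day 6, so mouse 332 was more than 5 log2 units above the other day 6 mice. Mx1 lay 5.08 above the next highest KO array. With Mx2, Oasl1, Isg20 and Bst2, all 11 antiviral effectors were higher on day 6 without overlap, beside 5.97% of all tested genes. This group was drawn up after values were seen. Oas1a, Oasl2, Ifit1, Ifit2, Mx1 and Mx2 entered the test only through day 6 arrays, so the day 6 level partly set the count. The median difference of the 11 was 4.71, and 3 were called. Of the 11, 7 had all day 2 values at or under 4, as did 3.46% of all tested genes.

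The other 4 called genes, Rtp4, Ifi27l2a, Ifi209 and Fgl2, were outside the list of interferon-stimulated genes. They were placed in a group of other interferon-induced genes drawn up after values were seen. Rtp4, a receptor transporter protein induced by interferon, was at 5.73, 5.83 and 5.93 on day 2 and 9.87, 11.27 and 8.78 on day 6, with a difference of 4.14 ± 0.59 (adjusted p = 0.00979). Ifi27l2a was at 5.66, 5.32 and 6.33 against 10.11, 10.66 and 7.95, with a difference of 3.80 ± 0.67 (adjusted p = 0.03). Ifi209, of the PYHIN family of nucleic acid binding proteins, was at 2.95, 2.92 and 3.61 against 7.25, 8.50 and 5.89, with a difference of 4.05 ± 0.64 (adjusted p = 0.00979). In these 3 genes as well, each day 6 mouse was above every day 2 mouse and mouse 337 was the lowest of day 6.

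Fgl2, a fibrinogen-like protein of activated macrophages, endothelium and T cells, had the smallest of the called differences. It was at 4.19, 4.14 and 4.19 on day 2 and 5.04, 6.13 and 5.48 on day 6, and rose by 1.38 ± 0.26 (adjusted p = 0.0328). Of the called genes with a second probe set, that of Fgl2 differed by 1.85, that of Rtp4 by 1.46 and that of Ifi209 by -0.02, the last at 2.19 to 2.23 on all 6 arrays and so at background. Oas1a and Ifi209 belong to families of closely related neighbouring genes, and the sources used here do not say how far their probes separate the members.

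Of the 36 genes of the interferon-stimulated list, 31 were on the array and 30 were tested. Of these, 5 were called higher and 0 lower, and 23 were higher without overlap, beside 5.97% of all tested genes. Among the 23 were Oas1a, Oasl2, Ifit1, Ifit2, Mx1 and Mx2, which entered the test only through day 6 arrays. The day 6 level therefore partly set these counts. The median difference of the list was 2.42, beside -0.0433 over all genes. Without mouse 332 the median was 1.40 with 0 calls, and without mouse 337 it was 3.24 with 11 calls. The 7 members whose groups overlapped were Iigp1, Irf1, Stat2, Cxcl9, Cxcl10, Tap1 and Ube2l6.

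**Figure D2:**
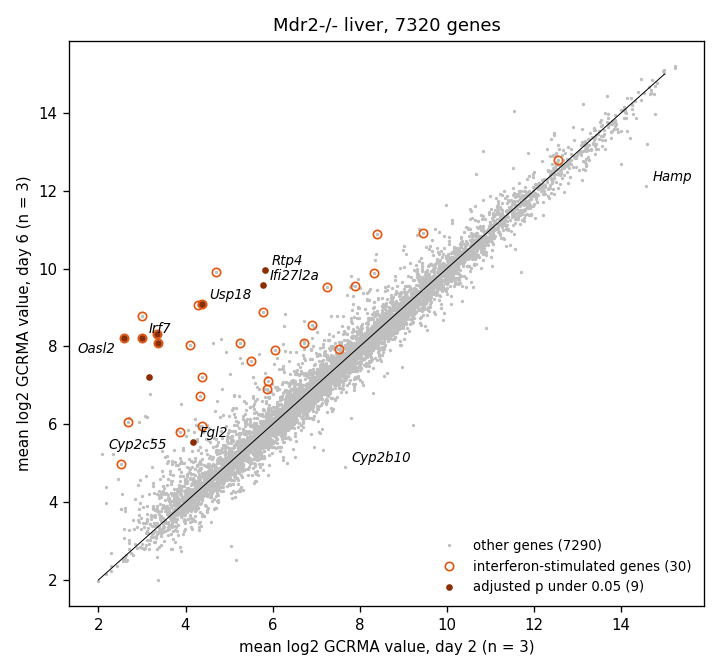
Mean log2 GCRMA value on day 6 (y axis, n = 3) against day 2 (x axis, n = 3) for the 7320 tested genes in KO liver; open circles are the 30 interferon-stimulated genes, dark points the 9 genes past the threshold, and the line is equality. All 30 interferon-stimulated genes lie above the line, by 0.24 to 5.80, and Hamp lies below it, with 1 mouse far under the others.

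The 3 day 6 mice differed in the size of the response and shared its order. The mean of the 30 genes, each centred on its mean over all arrays, was -0.84, -0.79 and -0.82 in mice 250, 254 and 258 on day 2, and 1.37, 4.06 and 0.61 in mice 312, 332 and 337 on day 6. Mouse 332 had the highest of the 3 day 6 values in 30 of 30 genes (29% of all tested genes), and the order 332, 312, 337 held in 25 of 30 (14.4% of all tested genes). On the array of mouse 332, 84 genes lay more than 1 log2 unit above each of the other 11 KO arrays, and 28 of them were on the interferon-stimulated list; the other day 2 and day 6 arrays had 0 to 13 such genes.

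The day 0 lobes place these values. Between the day 0 lobes of the mice of day 6 and of day 2 the model called 2 genes, Hspa1a and Hspa1b (0.0273% of those tested), neither of them an interferon gene. For the 30 genes the 3 mice of day 6 had differed from the 3 mice of day 2 by a median of 0.06 on day 0. Set against its own lobe, mouse 312 was higher in 28 of 30 genes (median 1.62), mouse 332 in 30 (median 3.92) and mouse 337 in 24 (median 0.69). The lobe of mouse 337 is 1 of the 3 arrays with a high Gapdh difference (2.03), so its own change has a weaker reference. On day 2, mouse 250 was lower than its lobe in 18 genes, mouse 254 in 23 and mouse 258 in 14, with medians of -0.28, -0.23 and 0.02. The median over the list of the day 6 minus day 2 difference was 2.29 when each mouse was set against its own lobe (3.05 without mouse 337 and 1.54 without mouse 332), close to the value without that adjustment, although 0 members were called in that fit.

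**Figure D3:**
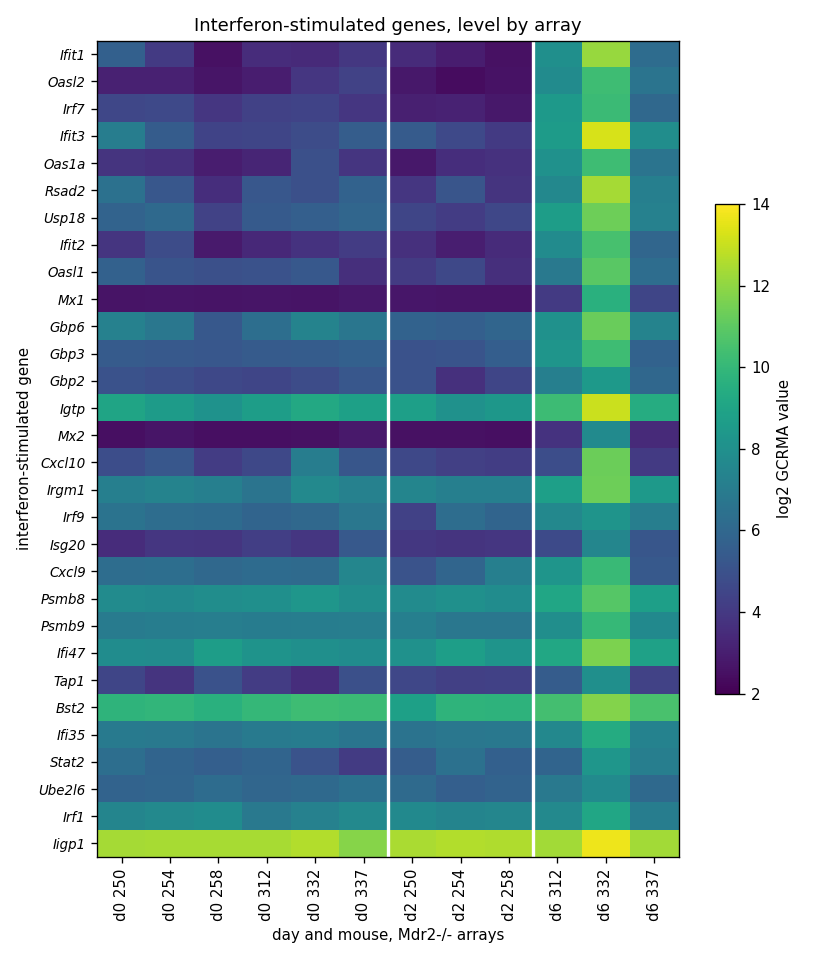
Level of the 30 tested interferon-stimulated genes (rows, ordered by the day 6 minus day 2 difference) on the 12 KO arrays (columns, day and mouse); colour is the log2 GCRMA value. The column of mouse 332 on day 6 is the brightest of the 12 in every row, and no day 2 column reaches it.

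The interferon-inducible GTPases attack the vacuoles of intracellular pathogens. They were higher without overlap in 6 of 7 genes, beside 5.97% of all tested genes, with a median difference of 2.50. This group, too, was drawn up after values were seen. Gbp6 was at 5.76, 5.63 and 5.92 on day 2 and 8.05, 11.26 and 7.35 on day 6 (difference 3.12 ± 0.76, adjusted p = 0.222). Gbp2 was at 5.01, 3.66 and 4.49 against 7.20, 8.44 and 6.01 (difference 2.83 ± 0.68, adjusted p = 0.207). Igtp and Irgm1 reached 13.02 and 11.33 in mouse 332, from at most 8.76 and 7.44 on day 2. Iigp1 alone overlapped, already at 12.47 to 12.63 on day 2.

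The chemokines Cxcl9 and Cxcl10, which attract activated T cells, were high in mouse 332, at 10.11 and 11.29. Cxcl10 was at 4.82 in mouse 312 and 4.06 in mouse 337, within or near the day 2 range of 4.18 to 4.58. Cxcl9 was at 8.24 in mouse 312 but at 5.36 in mouse 337, below the day 2 mice 254 and 258. Both chemokines therefore overlapped between days.

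Antigen presentation genes were higher by less. Of 21 on the list 15 were tested and 0 were called. Without overlap 9 were higher, beside 5.97% of all tested genes, with a median difference of 0.79. The immunoproteasome subunit Psmb8 was at 7.81, 8.0 and 7.85 on day 2 and 9.08, 10.83 and 8.77 on day 6 (difference 1.67 ± 0.48, adjusted p = 0.338). Psmb9 and Psmb10 followed the same order of mice on day 6, at 7.93, 10.06 and 7.70 and at 8.93, 10.07 and 8.56. The class II genes H2-Aa, H2-Ab1 and Cd74 were also without overlap, but with the highest value in mouse 312 (10.36, 8.87 and 10.56) and not in mouse 332. Each had an adjusted p of 0.999 in limma, and Cd74 was at most 9.62 on day 2 and at least 9.64 on day 6. H2-DMa, also of class II, overlapped (difference 0.30), and H2-Eb1 was at background, at 2.75 to 3.39.

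The ligands themselves were not measured above background. Of 10 interferon genes on the array, 9 were at or under log2 4 on all 6 arrays, and the largest difference between day means was 0.05. This includes Ifnb1 (2.19 to 2.27) and Ifng (2.35 to 2.45); Ifna2 was at 4.17 to 4.48. The receptor chains and kinases Ifnar1, Ifnar2, Ifngr1, Ifngr2, Il10rb, Jak1 and Tyk2 all overlapped between days, with a median difference of 0.10. Interferon ligands can act from few cells or other organs, and low messenger in whole liver does not show their absence.

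Nucleic acid sensors and related genes, the adaptor Mavs and the factor Irf3 among them, were measured in 8 genes. Of these 5 were higher without overlap, beside 5.97% of all tested genes, and 0 were called. Ifih1 (MDA5), a sensor of double-stranded RNA, was at 7.74, 8.07 and 7.33 on day 2 and 8.69, 10.91 and 8.40 on day 6. Dhx58 (LGP2) was at 2.77, 3.25 and 3.19 against 5.72, 8.50 and 4.40, and Zbp1, a sensor of Z-form nucleic acids, at 4.85, 4.87 and 5.08 against 7.05, 10.27 and 6.26. Tlr3 was at 7.67 in mouse 332 and at 4.23 to 4.92 on the other 5 arrays, while the adaptor Mavs and the factor Irf3 overlapped between days, with differences of 0.01 and -0.33. These genes, and Trim30a, Ifi202b, Ifi204, Cmpk2, Ddx60, Slfn8, Parp14 and Uba7, were named after their values were seen. Trim30a was at 4.60, 4.42 and 4.90 against 8.07, 9.75 and 6.48, and Ifi202b at 4.15, 4.69 and 5.62 against 8.17, 9.12 and 7.25; their adjusted p were 0.0906 and 0.0617.

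In control mice, too, interferon-stimulated genes were higher on day 6 than on day 2: 18 of the 30 were higher without overlap, beside 5.22% of all tested genes. Here as well, some of the 30 had entered the test only through day 6 arrays. The control comparison called 142 genes (1.94% of those tested), 78 higher and 64 lower, among them Irf7 (adjusted p = 0.00601), Oas1a (0.00558), Usp18 (0.00787), Rtp4 (0.0128) and Ifi27l2a (0.0265). Control Irf7 was at 2.04 to 2.78 on day 2 and at 5.46, 6.52 and 9.18 on day 6 in mice 303, 393 and 392. The median of the 30 interferon-stimulated genes was 2.53 in controls and 2.42 in KO. The test of the difference itself, KO minus control, called 0 genes in limma, with 409 (5.59%) at an unadjusted p under 0.05. Of the 9 genes, the largest KO minus control difference was 2.72 for Oasl2 (unadjusted p = 0.075), and for Irf7 it was 0.46 (unadjusted p = 0.691); a missed threshold does not show that the genotypes were alike.

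In controls too the mice differed. Mouse 392 had the highest mean centred level of the antiviral effectors (3.99, against 0.12 in mouse 303 and 0.69 in mouse 393), whereas mouse 303 led for the GTPases (2.94, against 2.56 and 0.39). In KO liver mouse 332 led for both groups, at 5.52 and 3.14. The control count rested on single arrays: without mouse 392 it was 45, without the day 2 mouse 264 it was 852, without the day 2 mouse 263 it was 313, and without the 3 arrays of high Gapdh difference, of which 2 are control day 2 arrays, it was 19. Without those 3 arrays the KO comparison called 1 gene.

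Markers of immune cells were read beside the interferon genes. Of the 23 T and NK cell markers on the array, 10 had a higher mean on day 6. Without overlap 0 were higher, beside 5.97% of all tested genes, and 3 were tested (Gzmb, Klrk1 and Ltb). The summed level of the 23 markers was 57.5 to 58.5 on day 2 and 55.7 to 68.9 on day 6. Gzmb, the killer cell protease granzyme B, was at 2.17 to 2.20 on day 2 and at 5.09, 5.92 and 2.12 on day 6; Klrk1 (NKG2D) was at 2.11 to 2.24 and at 4.35, 5.42 and 2.17. These were above background in mice 312 and 332 and at background in mouse 337, and the groups overlapped. Ltb, a lymphocyte cytokine, was at 3.30, 4.88 and 4.95 against 3.91, 3.64 and 3.52. The defining markers Cd3e, Cd3g and Nkg7 were at or under 2.72 on all 6 arrays. Gzma was at 5.35 in mouse 312 and at 2.32 to 2.40 on the other 5. In whole tissue, fewer cells of a type and less RNA per cell cannot be told apart.

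Of the 31 Kupffer cell and macrophage markers on the array, 23 had a higher mean on day 6. Without overlap 2 of these markers were higher, beside 5.97% of all tested genes. Their summed level was 192.4 to 233.2 on day 2 and 211.9 to 244.8 on day 6. Fcgr1, a high-affinity antibody receptor that interferon also induces, was at 3.29, 3.92 and 4.45 against 6.70, 7.80 and 5.09 (difference 2.64 ± 0.62, adjusted p = 0.187). The resident Kupffer cell markers Clec4f and Cd5l were high in mice 312 and 332 (10.21 and 10.04, 10.95 and 10.36) and lower in mouse 337 than in any day 2 mouse, at 7.04 and 7.05, and Marco was at or under log2 4 on the 6 arrays. Neutrophil markers overlapped, with S100a8 at 5.48, 6.53 and 8.69 on day 2 and 8.07, 7.68 and 8.92 on day 6, and Ngp at or under log2 4. B and plasma cell markers summed to 53.9 to 54.7 and to 53.6 to 57.1, and Cd79a, Cd79b and Ms4a1 were at or under log2 4. The part of immune cell number in the interferon genes was not tested.

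The called genes were 5 of the interferon-stimulated list and 4 of a group drawn up after values were seen. No other gene passed the threshold, and the values that follow describe lists by their counts. Genes of the liver endothelium were higher on day 6, but the same mice had differed in this direction before. Of the 26 tested endothelial genes 13 were higher and 0 lower without overlap, beside 5.97% and 7.32% of all tested genes, with a median difference of 0.80; controls had a median of 0.12. On day 0 the mice of day 6 already exceeded the mice of day 2 by a median of 0.58, and against their own lobes the difference had a median of 0.25. That last value was 0.53 without mouse 258, 0.42 without 337, 0.39 without 332 and 0.10 without 250, while the difference between the days stayed between 0.60 and 0.86 with any 1 mouse left out. Oit3, a sinusoidal endothelial protein, was at 5.19, 4.75 and 5.03 on day 2 and 6.36, 6.35 and 5.95 on day 6, a difference of 1.23 that was 0.18 against the own lobes and 0.53 there without mouse 258.

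Gpr182 and Clec4g, also sinusoidal, had differences of 1.25 and 1.01, which were 0.18 and 0.07 against the own lobes, and 0.71 and 0.50 there without mouse 258. Gja4, a connexin of arterial endothelium, was at 3.33, 3.45 and 4.45 against 5.10, 5.39 and 5.50 (difference 1.59 ± 0.39, adjusted p = 0.238) and kept 1.13 of it against the own lobes. Pecam1, an adhesion molecule of all endothelium, was at 2.57, 2.71 and 2.56 against 3.45, 4.04 and 4.04, close to background throughout. The endothelial markers summed to 148.2 to 167.6 on day 2 and to 175.8 to 183.2 on day 6, with Kdr at or under log2 4.

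**Figure D4:**
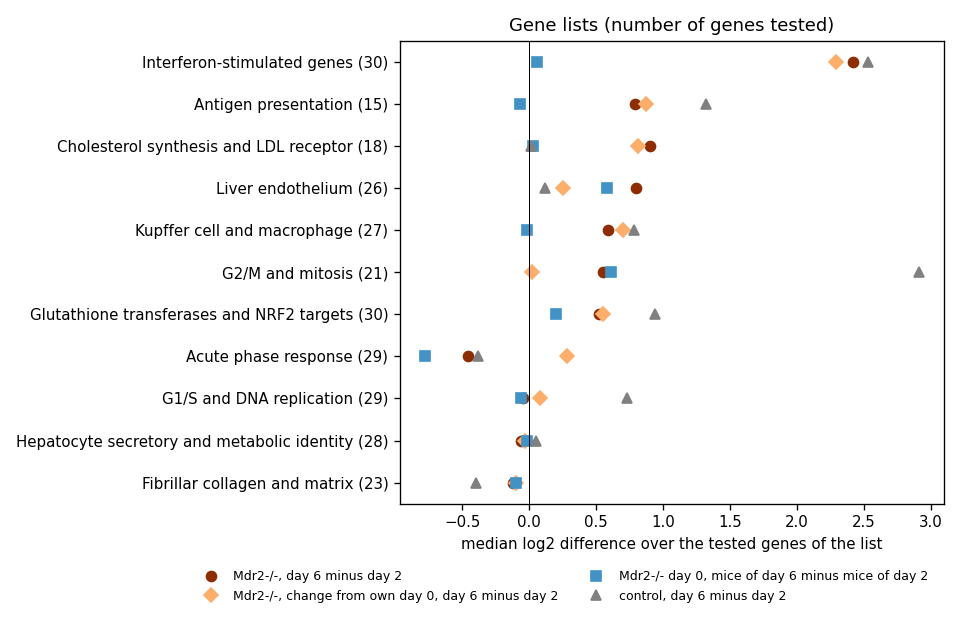
Median log2 difference (x axis) over the tested genes of 11 lists (y axis, number of genes in brackets): KO day 6 minus day 2 (circles), the same relative to each mouse's day 0 lobe (diamonds), KO day 0 between the mice of day 6 and of day 2 (squares), and control day 6 minus day 2 (triangles). The interferon list stands at 2.42 with 0.06 on day 0, the endothelial list at 0.80 with 0.58 on day 0, and the mitosis list at 0.55 in KO and 2.91 in controls.

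Glutathione transferases and other targets of NRF2, the factor that switches on detoxifying enzymes, were higher on day 6 in 15 of 30 tested genes without overlap, 1 was lower, beside 5.97% and 7.32% of all tested genes, and 0 were called. The median difference was 0.52, against 0.94 in controls. Gstm3 was at 10.69, 11.18 and 10.61 on day 2 and 12.96, 12.76 and 13.32 on day 6 (difference 2.19 ± 0.58, adjusted p = 0.29), beside a mean of 12.90 on day 0. The day 2 mice were below their own lobes for Gstm3 by 0.68 to 2.54, and the day 6 mice lay within 0.76 of theirs. Gsta2, Gstp1, Ugdh, Srxn1 and Ephx1 were also without overlap, with differences of 0.78 to 1.75.

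For cholesterol synthesis genes the median difference was 0.90, with 5 of 18 tested genes higher without overlap, beside 5.97% of all tested genes, and 0 called. Without mouse 258 the median was 0.34. Fdps, which makes farnesyl pyrophosphate, was at 11.22, 10.32 and 8.38 on day 2 and 11.66, 11.50 and 11.73 on day 6. The day 6 mice were alike and the day 2 mice were not: the mean centred level of the list was 0.71, -0.01 and -1.12 in mice 250, 254 and 258, and 0.63, 0.60 and 0.78 on day 6. Hmgcs1, at the entry to the pathway, had the same pattern, with 10.78 in mouse 258 and 12.34 to 13.17 on the other 5 arrays.

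Mouse 258 stood apart on day 2 in further genes, named after their values were seen. Cyp7a1, which sets the rate of bile acid synthesis, was at 10.01, 8.51 and 5.48 on day 2 and 9.64, 9.58 and 9.27 on day 6, and so overlapped. A2m, an acute phase protease inhibitor, was at 6.29 in mouse 258 and at 2.63 to 2.91 on the other 5 arrays. Moxd1 was at 6.07 in mouse 258 and at 2.00 to 2.05 elsewhere, the largest gap of any gene on that array (4.02 above the next KO array). The lobe of mouse 258 had also been extreme on day 0, lowest in Cyp7a1 (8.26) and highest in Col1a1 (9.90) and Col3a1 (12.27).

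Among genes lower on day 6, none was called. Socs2, a growth hormone-induced suppressor of cytokine signalling, was at 9.88, 9.59 and 8.20 on day 2 and 5.90, 4.76 and 7.30 on day 6 (difference -3.24 ± 1.12, adjusted p = 0.57). The day 0 lobes ranged from 4.13 to 9.93, wider than the difference between the days. Against the own lobes the Socs2 difference was -4.53, and it ran from -6.43 (without mouse 258) to -2.69 (without mouse 250) with 1 mouse left out. Cyp2b10, a drug-metabolising cytochrome of the nuclear receptor CAR, was at 8.85, 7.13 and 6.99 against 3.35, 6.63 and 4.73 (difference -2.75 ± 0.72, adjusted p = 0.282). Of the 25 tested drug-metabolising cytochromes 6 were lower and 1 higher without overlap, beside 7.32% and 5.97% of all tested genes; the higher one, Cyp2c55, was at 2.34, 1.81 and 2.11 against 3.90, 5.13 and 6.71.

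Cry1, a repressor of the circadian clock, was at 7.25, 7.23 and 6.38 against 5.90, 5.11 and 5.27 (difference -1.53 ± 0.43, adjusted p = 0.316); the sources used here do not give the hour of sampling. Odc1, the first enzyme of polyamine synthesis, was at 9.53, 9.42 and 9.55 against 8.42, 8.33 and 8.85. The receptor Egfr was at 11.40, 11.39 and 11.55 against 10.57, 10.66 and 10.59, a narrow spread within each day (adjusted p = 0.688). The bile salt export pump Abcb11 was at 10.31, 10.90 and 11.12 against 9.85, 9.89 and 10.29, without overlap by 0.02.

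Acute phase genes, secreted by hepatocytes under IL-6, were lower on day 6 without overlap in 7 of 29 tested, beside 7.32% of all tested genes, with 0 higher and a median difference of -0.46. Saa1 was at 14.63, 14.83 and 14.91 on day 2 and 13.46, 14.47 and 13.96 on day 6, and Saa2 at 14.14, 14.67 and 15 against 12.26, 13.98 and 13.38; these neighbouring genes are close copies whose probes may share signal. On day 0 the mice of day 6 differed from those of day 2 by a median of -0.78, and against the own lobes the list had a median of 0.28. All 3 medians depended on mouse 258, whose lobe was already high on day 0 (Saa1 14.67, Lcn2 14.14): without it they were -0.18 between the days, -0.20 on day 0 and -0.02 against the own lobes. The own-lobe median also fell to 0.03 without mouse 250, 0.11 without 312 and 0.06 without 332, and was 0.79 without 254. Lcn2, an iron-sequestering acute phase protein, was at 13.43, 14.06 and 14.22 against 13.68, 13.55 and 13.52.

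Most mitotic and replication genes named here were low on both days. Of the 21 tested mitotic genes 6 were higher on day 6 without overlap, beside 5.97% of all tested genes, and 0 were called, with a median of 0.55, a day 0 difference of 0.61 between the same mice and a median of 0.02 against the own lobes. Without mouse 258 on both days these were 0.70, 0.36 and 0.37, and the own-lobe median ran from -0.24 (without mouse 254) to 0.37 over the 6 ways of leaving out 1 mouse; in controls the median was 2.91. Cdk1, the mitotic kinase, was at 4.56, 3.36 and 4.90 on day 2 and 5.68, 5.54 and 5.47 on day 6. Mki67 was at 3.13, 3.10 and 5.03 against 5.03, 5.0 and 5.07, with mouse 258 at the day 6 level. Replication genes had a median of -0.05 in KO, Mcm5 lay at 2.36 to 3.46 and Top2a at 2.89 to 3.65, both near background. Ccnd1 and Cdkn1a overlapped, at 9.20 to 10.58 and 6.40 to 10.05.

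Genes of DNA damage responses showed no call. Of 21 tested p53 targets 1 was higher without overlap (5.97% of all tested genes were), Plk3, a stress-induced kinase, at 4.85, 6.01 and 5.93 on day 2 and 6.84, 7.17 and 7.21 on day 6, and the list had a median difference of 0.09. Of 12 tested genes of double-strand break repair 3 were lower without overlap, with a median of -0.10. Among them the end-joining kinase Prkdc was at 4.67, 5.14 and 5.08 against 4.61, 4.11 and 4.53, and the end-binding protein Xrcc5 at 6.03, 6.18 and 5.98 against 5.75, 5.64 and 5.96. All these levels were modest, and 3 of 12 lower stands beside 7.32% of all tested genes.

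Fibrillar collagen genes spread more between mice than between days. Col1a1 was at 5.87, 8.93 and 10.10 on day 2 and 5.74, 6.24 and 8.40 on day 6, and Col3a1 at 9.67, 11.80 and 12.44 against 10.10, 10.30 and 11.91. Of 23 tested matrix genes 0 were higher and 1 lower without overlap (Fn1, difference -0.48), beside 5.97% and 7.32% of all tested genes. Hepatocyte identity genes had a median difference of -0.06 over 28 genes. Igfbp1 was at 11.29, 12.86 and 12.87 against 12.59, 10.40 and 12.45, and Asns and Cd163 were at or under 3.15 on all 6 arrays.

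The day 6 liver of mouse 337, lowest of the day 6 livers in the mean of the interferon genes, stood apart in iron genes. Hamp encodes hepcidin, the hepatocyte hormone that blocks iron export, and is switched on by BMP and SMAD signals and by IL-6. It was at 14.56, 14.64 and 14.50 on day 2 and at 14.77, 14.70 and 6.90 on day 6. Mouse 337 was the only low array: the other 11 KO arrays, its own day 0 lobe at 14.79 included, lay between 14 and 14.79. The day difference of -2.44 ± 1.24 (adjusted p = 0.999) rested on it. Hamp2, a neighbouring close copy, was at 3.02 in mouse 337 and at 9.73 to 11.47 on the other 11.

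Genes that SMAD signals induce were lowest in the same array, and were named after their values were seen. Id1 was at 5.36 (6.26 to 9.05 on the other 11 KO arrays), Id2 at 10.29 (11.48 to 12.52), Id3 at 7.58 (8.75 to 10.15), Smad7 at 4.86 (5.30 to 8.12) and Atoh8 at 1.97 (3.23 to 6.28). The transferrin receptor Tfrc was highest there, at 10.62 against 6.56 to 8.69, as were the red cell genes Alas2 (8.08 against 4.75 to 6.85), Hbb-b2 (6.00 against 3.10 to 4.97) and Slc4a1 (4.23 against 3.09 to 3.31). Erythroid markers summed to 42.9 to 52.2 on day 6 and to 41.0 to 44.4 on day 2. Msln, a mesothelial protein, was at 7.0 in mouse 337 and 2.64 to 4.90 on the other 11. Bmp6, the endothelial ligand that induces hepcidin, was higher on day 6 in all 3 mice, at 4.90, 4.0 and 3.73 against 2.97, 3.18 and 3.33, near background. These values come from 1 mouse and have no replicate.

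**Figure D5:**
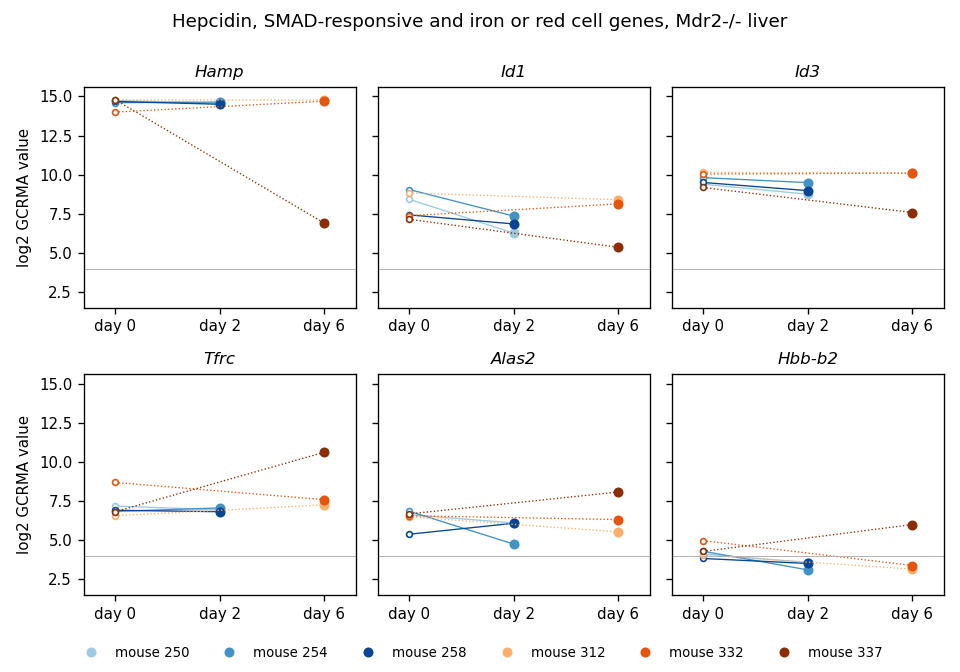
Log2 GCRMA values (y axis) of Hamp, Id1, Id3, Tfrc, Alas2 and Hbb-b2 on days 0, 2 and 6 (x axis) in KO liver, with lines from the day 0 lobe (open circle) to the later sample (filled circle) of each mouse and a grey line at log2 4. Mouse 337 on day 6 is the lowest point for Hamp (6.90), Id1 and Id3, and the highest for Tfrc (10.62), Alas2 and Hbb-b2.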

How the data were processed

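Total RNA of mouse liver was hybridised to Affymetrix-type 3' expression arrays, 1 per sample. The deposited values are log2 values that the authors made with GCRMA, a method that corrects background by probe sequence, per the submitters' processing notes; the sources used here give no version, options or scanner settings. GCRMA compresses low values, so levels at or under log2 4 were read as near background. Arrays give no counts; the number of mice limits the precision.

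Of 22690 probe sets, 20380 had 1 gene symbol in the platform annotation and were used; 20351 matched RefSeq (GRCm38.p6) by Entrez ID, 691 had several symbols and 1555 none here. Groups came from the titles, with the mouse as replicate. Differences were tested with limma 3.58.1 (lmFit, eBayes; R 4.3.3) in 1 model of all 6 groups with 15 residual degrees of freedom, two-sided, Benjamini-Hochberg adjusted over the 7320 genes, threshold 0.05. The mouse number links day 0 and later samples of 1 animal, per the labels' design text; deviations of the 9 such pairs correlated at -0.0568 to 0.303 (median 0.119). Alternatives took the mouse as a random block (consensus correlation 0.108) or, over the KO arrays, as a fixed one. The other alternatives changed the filter, probe set choice, normalization, variance model or arrays. On simulated data for the KO comparison (7320 genes, normal noise) the test recovered 46% of genes changed by 1 log2 unit, 84% at 2, 96% at 4 and 100% at 6. It made 7 false calls among 7120 unchanged genes. The simulation changed 50 genes at each size and gave all groups the same spread for a gene. These shares therefore do not carry over to genes that spread widely on day 6, such as Ifit1, not called at a difference of 5.80.

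Genes were named by rule: Abcb4; the largest called rises and falls without overlap; of each list up to 4 called members or the member with the smallest p; and a fixed set of liver genes. Others were named after their values were seen, the subgroups of interferon genes included. The members and lists were chosen with earlier results of these data known. Motifs were searched with Python 3.11.15; figures used matplotlib 3.10.9.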

Additional observations from a re-analysis of the deposited data

Results flagged for a closer look

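The 6 day 0 lobes of KO mice were searched for single values far from the rest (Dixon's criterion, which flags about 1 in 20 groups by chance) in 27 genes. Mouse 258 was highest in Col1a1 (9.90), Col3a1 (12.27) and Asns (3.66, near background) and lowest in Cyp7a1 (8.26). Mouse 332 was lowest in Hamp (14) and highest in Top2a (3.97, near background). Tspan8, a tetraspanin of epithelial and tumour cells, had all 3 KO mice of day 6 above those of day 2 (4.76 to 5.25 against 4.20 to 4.47) and all 3 control mice below (2.71 to 2.85 against 2.93 to 2.98, near background). The KO minus control difference was 0.87, with an unadjusted p of 0.0754 in the limma interaction, and did not pass after adjustment.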

How the results depend on the processing

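The KO comparison of day 6 with day 2 called 9 genes, and every call under every alternative was of a higher gene. The count was 8 with a filter at log2 6, with probe sets averaged per gene, with quantile normalization and with eBayes trend and robust, 9 with median centring and with the random replicate block, and 10 in a fit of only the KO arrays, which was added after the data had been seen. It was 0 with no filter (12393 genes), 4 with every probe set on its own, 14 with array weights, 0 when the model held only the groups compared, 1 without the 3 arrays of high Gapdh difference and 0 with the fixed replicate block; leaving out 1 mouse gave 0 to 33. Each of the 9 genes was called in 1 or 2 of the 6 fits without 1 mouse, with a log2 difference above 0 in all of them and a highest adjusted p between 0.0867 and 0.214 per gene. The 33 genes called without mouse 337 hold all 9. The control comparison called 142 genes, 224 with every probe set, 218 with median centring, 17 with array weights, 0 with only the groups compared and 19 without the 3 arrays of high Gapdh difference; leaving out 1 mouse gave 45 to 852. The KO minus control difference called 0 genes, 1 without those 3 arrays, and 0 to 13 with 1 mouse left out. For the day 0 lobes, the mice of day 6 against the mice of day 2, the count was 2 (Hspa1a and Hspa1b, heat shock genes that are close copies), 1 with the mean of probe sets, 5 with array weights and 0 to 3 with 1 mouse left out. The random replicate block gave 140 genes in controls and changed the count of no other comparison. The cause of these shifts was not tested, beyond the fewer arrays or larger number of genes in the fits that have them. Day 2 levels of 7 antiviral effectors were near background, which limits the size of their differences. Medians against the own day 0 lobes were also computed without each KO mouse, which was added after the data had been seen: they ran from 0.10 to 0.53 for the endothelial list, -0.24 to 0.37 for mitosis and -0.02 to 0.79 for the acute phase.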
